A study of Homo sapiens with 18 samples.

Results

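The Hippo pathway and the genes that its effectors YAP and TAZ switch on were followed in HCT116, an epithelial cell line from a human colorectal carcinoma. The set held 37 genes, chosen by symbol from general knowledge of the pathway, out of 61552 genes in the count table. It comprised 7 transcription factors and cofactors, 7 genes of the core kinase cassette, 8 upstream regulators and scaffolds and 15 YAP/TAZ targets. All 37 passed the filter on low counts, which kept 19038 genes for testing. The rule that picks them uses symbols and no measured value, although the list was drawn up with earlier results of these data known.

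Hippo signalling is a kinase relay that restrains growth. NF2, WWC1 and FRMD6 at the cell cortex activate the kinases STK3 and STK4, which with the scaffold SAV1 activate LATS1 and LATS2 and their cofactors MOB1A and MOB1B. The LATS kinases phosphorylate YAP (gene YAP1) and TAZ (gene WWTR1), which keeps them out of the nucleus, and unphosphorylated YAP and TAZ bind TEAD transcription factors at target genes. In intestinal epithelium, YAP and TAZ are known for their part in regeneration after injury. Much of this control acts on the protein and its location, which counts of RNA do not measure.

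Total RNA was sequenced in 18 libraries from 3 lines, each with IκBα, which restrains NF-κB, altered by knock-in. One line (N108) is named for residue 108, another (M3) has alanine in place of residues 84, 85 and 86, and the third carries the wild-type protein (WT). Each line received human TNFα for 40 min at a dose of 0.1 µg/mL or was left untreated, which gave 6 groups of 3 libraries. By its title, the study addresses what IκBα does for intestinal stemness apart from NF-κB. All groups, WT included, were knock-ins in the same cell line. Each genotype is represented by 1 line, and effects of the mutation and of the clone cannot be told apart. Nothing in the labels says that replicates were separate cultures, and the spread behind each p-value may therefore be technical.

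Library totals lay between 49021907 and 76947190 counts. Levels are given as CPM (counts divided by the TMM-scaled library total and expressed at a common depth), as mean ± SD over 3 libraries. A gene passed a test at an adjusted p of at most 0.05 in edgeR's quasi-likelihood test, with Benjamini-Hochberg adjustment over all genes tested. NFKBIA, which encodes IκBα, stood in N108 at 276 ± 19 CPM with TNF and 30.3 ± 1.8 CPM untreated. In M3 it stood at 966 ± 21 CPM with TNF and 77.9 ± 1.2 CPM untreated, and in WT at 758 ± 20 CPM with TNF and 91.6 ± 4.6 CPM untreated. Counts carry no information on the altered residues. All 7 epithelial markers (EPCAM, CDH1, KRT8, KRT18, KRT19, CLDN4 and CLDN7) were detected in every group. Their summed level lay between 5140 and 5410 CPM in untreated N108 libraries, between 4400 and 4740 CPM in untreated M3 libraries and between 6660 and 6980 CPM in untreated WT libraries. Most of it came from KRT8, KRT18 and KRT19, which were lower in both mutants, as were CDH1 and CLDN4. EPCAM went the other way, at 306 ± 10 CPM in untreated N108, 355 ± 15 in M3 and 287 ± 8.6 in WT. CLDN7 was similar in the 3 lines, at 131 ± 2.6, 134 ± 9.7 and 137 ± 3 CPM. The summed level of 8 fibroblast markers lay between 37 and 40.4 CPM in untreated N108, between 39.8 and 46.1 CPM in untreated M3 and between 34 and 34.5 CPM in untreated WT. Most of it came from COL1A1 (28, 31.7 and 22.8 CPM in the same order). ACTA2 was also higher in both mutants, COL3A1 was lower (2.36, 2.56 and 4.34 CPM), and DCN and LUM had 0 counts in all libraries. The sum of 5 endothelial markers lay between 1.76 and 2.32 CPM in untreated N108, between 1.24 and 1.54 CPM in untreated M3 and between 1.67 and 1.84 CPM in untreated WT. The sum of 5 leukocyte markers lay between 0.147 and 0.185 CPM in untreated N108, between 0.242 and 0.526 CPM in untreated M3 and between 2.66 and 3.1 CPM in untreated WT, mostly from LYZ, with PTPRC at or next to 0 counts. The epithelial, fibroblast and leukocyte sums moved with the line, as did many members. The untreated endothelial sum was lower in M3 than in the other lines, which overlapped. The part of these sums in the results below was not tested. In RNA of whole cultures, fewer cells of a type and less RNA per cell cannot be told apart.

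The untreated mutant lines differed from WT in most of the set, and most of the differences were reductions. In N108, 27 of 37 members (73%) passed against WT, beside 42.4% of all genes tested. Of these, 20 were lower (54.1% of members, beside 21.6% of all genes) and 7 higher (beside 20.9%). In M3, 28 of 37 members (75.7%) passed against WT, beside 52.9% of all genes. Of these, 24 were lower (64.9% of members, beside 26.8% of all genes) and 4 higher (beside 26.1%). The median log2 fold change of the members was -0.24 in N108, beside 0.01 over all genes tested, and -0.46 in M3, beside 0.00 over all genes. Reductions of at least 2-fold were called for 6 members in N108 (16.2% of members, beside 3.15% of all genes) and for 10 in M3 (27.0% of members, beside 4.95% of all genes). Both comparisons use the same 3 WT libraries, so their values stand side by side and their likeness is no separate result.

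**Figure D1:**
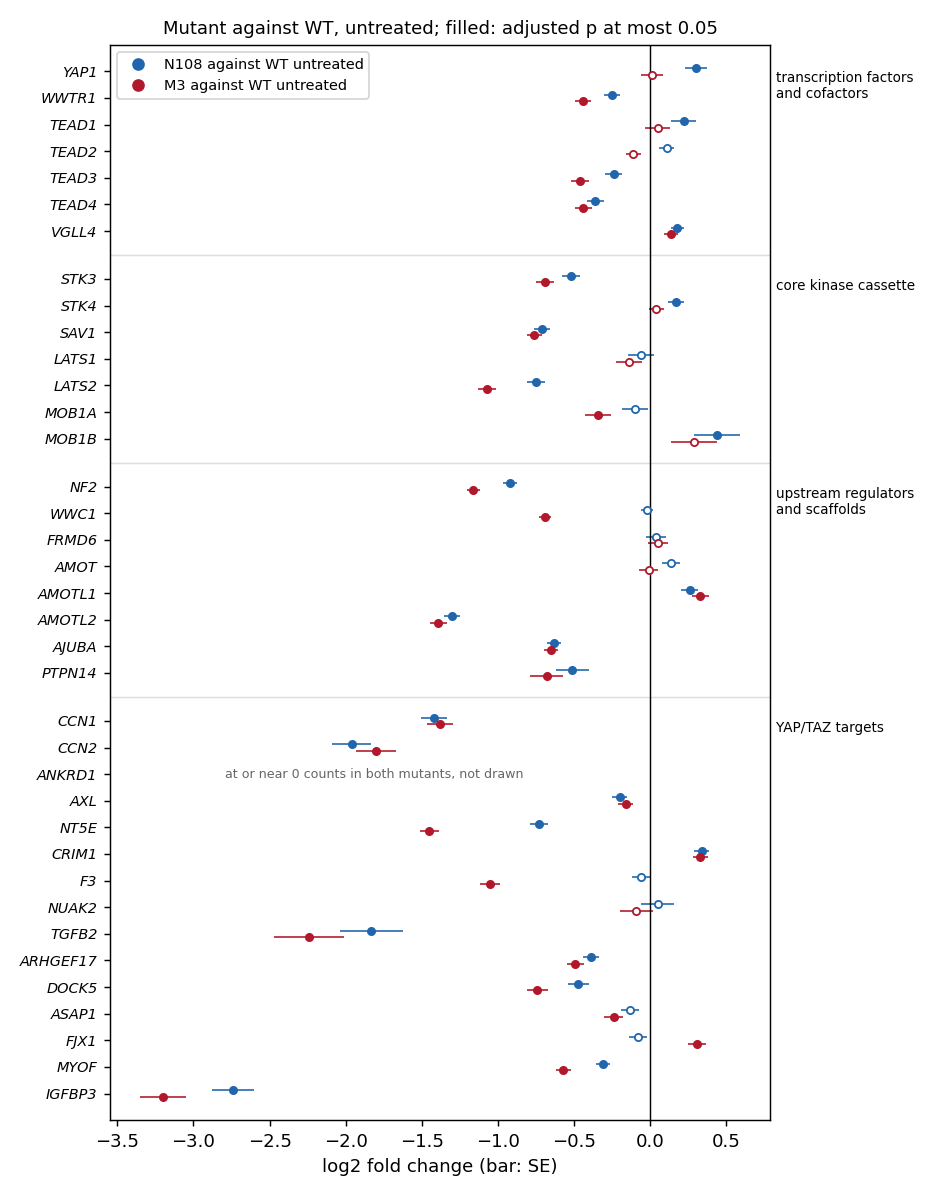
Log2 fold change (x axis) of 36 members, by role down the page, in untreated N108 against WT (blue) and untreated M3 against WT (red), with bars for the standard error and filled points for an adjusted p of at most 0.05. Most filled points lie left of 0, with IGFBP3 furthest at -2.74 in N108 and -3.20 in M3, while YAP1 in N108 lies right of 0 at 0.30; ANKRD1, at or near 0 counts in both mutants, is not drawn.

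Among the transcription factors and cofactors, the differences were small and went both ways. YAP1, the coactivator that carries the pathway's output into the nucleus (ENSG00000137693, chromosome 11, 102110461 to 102233423, GRCh38), stood at 234, 240 and 214 CPM in untreated N108, at 197, 205 and 163 CPM in untreated M3 and at 197, 185 and 178 CPM in untreated WT. The N108 libraries all lay above the WT libraries, while M3 and WT overlapped. YAP1 was higher in N108 than in WT (log2 fold change 0.30, SE 0.072, adjusted p = 0.0023) and did not pass in M3 (0.01, SE 0.072, adjusted p = 0.91). WWTR1, which encodes the paralog TAZ (chromosome 3, 149517235 to 149736714), stood at 68.4, 68 and 63.5 CPM in untreated N108, at 58.8, 61.7 and 53.6 CPM in untreated M3 and at 81.9, 77.8 and 77.1 CPM in untreated WT. Each mutant lay wholly below WT, with a log2 fold change of -0.25 in N108 (SE 0.055, adjusted p = 0.00059) and -0.44 in M3 (SE 0.055, adjusted p = 1e-07). Per exon length, YAP1 was the more abundant of the pair, at 36.4 RPKM (CPM divided by exon length in kilobases) in untreated N108, 29.9 in untreated M3 and 29.7 in untreated WT. WWTR1 stood at 7.92, 6.9 and 9.38 RPKM in the same groups.

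The TEAD factors bring YAP and TAZ to DNA. In untreated WT cells TEAD2 had the highest level per length (20.1 RPKM), followed by TEAD3 (17.0), TEAD1 (14.1) and TEAD4 (13.9). TEAD2 counts stood at 65.6, 64.7 and 63.5 CPM in untreated N108, at 53.3, 55.9 and 57.1 CPM in untreated M3 and at 57, 59.4 and 63.5 CPM in untreated WT. Neither mutant passed against WT for TEAD2 (0.11 in N108, adjusted p = 0.077; -0.11 in M3, adjusted p = 0.055). These calls depended on the setting. TEAD2 passed as higher in N108 with each library's GC trend removed (0.17, adjusted p = 0.00093) and when only the groups compared were fitted (0.11, adjusted p = 0.029). In M3 it passed as lower with DESeq2 (-0.12, adjusted p = 0.047). TEAD3 was lower in both lines (-0.24 in N108, -0.46 in M3), as was TEAD4 (-0.36 and -0.44). TEAD1 was higher in N108 (0.22, adjusted p = 0.035), a call that was lost without any 1 of N108 replicates 1 and 2 and the 3 WT replicates (0.19 to 0.23, adjusted p from 0.055 to 0.12) and when each library's GC trend was removed. VGLL4, which competes with YAP and TAZ for TEADs, was slightly higher in both lines (0.18 in N108, 0.14 in M3). The M3 call was lost without WT replicate 2 (0.11, adjusted p = 0.077). Exons of VGLL4 overlap ATG7 on the other strand over 22.06% of their bases, and whether counting used the strand is not known here.

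In the core kinase cassette SAV1, STK3 and LATS2 were lower in both lines. LATS2, a kinase that phosphorylates YAP and TAZ and is itself known as a YAP target (chromosome 13, 20973032 to 21061547), stood at 14.8, 14.4 and 16.4 CPM in untreated N108, at 11.6, 12.9 and 12 CPM in untreated M3 and at 25.7, 24.9 and 26 CPM in untreated WT. The 3 lines did not overlap, with M3 lowest and WT highest. The log2 fold change against WT was -0.75 in N108 (SE 0.06, adjusted p = 4.6e-11) and -1.07 in M3 (SE 0.061, adjusted p = 2.5e-14). Its paralog LATS1 stood at 32.1 ± 1.7 CPM in N108, 30.3 ± 3.9 in M3 and 33.3 ± 0.81 in WT. It did not pass in either mutant (-0.06, adjusted p = 0.63; -0.14, adjusted p = 0.18). LATS1 did pass as lower in M3 with GC trends removed (-0.19, adjusted p = 0.0083) and without M3 replicate 2 (-0.22, adjusted p = 0.042).

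SAV1, the scaffold of the STK kinases (chromosome 14, 50632058 to 50668331), stood at 57.1, 58.7 and 55.7 CPM in untreated N108, at 57.7, 57.1 and 50.7 CPM in untreated M3 and at 97.6, 91.8 and 90.8 CPM in untreated WT. The mutants overlapped each other and both lay far below WT (-0.71 in N108, adjusted p = 4.3e-12; -0.76 in M3, adjusted p = 5.9e-13). ATL1, which overlaps 14.92% of SAV1 exon bases on the other strand, averaged only 4.75, 4.83 and 3.81 CPM in untreated N108, M3 and WT. STK3 was lower in both lines (-0.52 in N108, -0.69 in M3), while its paralog STK4 was slightly higher in N108 (0.17, adjusted p = 0.0059) and did not pass in M3 (0.04, adjusted p = 0.53). MOB1A, a LATS cofactor, passed as lower in M3 (-0.34) and did not pass in N108 (-0.10, adjusted p = 0.38). With GC trends removed, MOB1A passed as lower in N108 too (-0.16, adjusted p = 0.0027). Its close paralog MOB1B was higher in N108 (0.44, adjusted p = 0.034). That call was lost without any 1 of N108 replicates 1 and 2 and WT replicates 2 and 3 (0.35 to 0.44, adjusted p from 0.081 to 0.13). In M3, MOB1B did not pass (0.29, adjusted p = 0.13), but it did with GC trends removed (0.23, adjusted p = 0.012) and without M3 replicate 3 (0.46, adjusted p = 0.0058).

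Upstream, NF2 and AMOTL2 had the largest reductions. NF2, the tumour suppressor merlin that recruits LATS kinases to the membrane (chromosome 22, 29603556 to 29698598), stood at 95.2, 90.6 and 94.4 CPM in untreated N108, at 79, 78.1 and 80.6 CPM in untreated M3 and at 177, 171 and 183 CPM in untreated WT. Every mutant library lay below every WT library, and M3 below N108. The log2 fold change was -0.92 in N108 (SE 0.044, adjusted p = 8.3e-16) and -1.16 in M3 (SE 0.045, adjusted p = 3.3e-18). AMOTL2, an angiomotin that tethers YAP in the cytoplasm and is known as a YAP target (chromosome 3, 134355874 to 134375479), stood at 43.6, 44.3 and 47.3 CPM in untreated N108, at 39.2, 43.7 and 44 CPM in untreated M3 and at 109, 111 and 113 CPM in untreated WT. The mutants overlapped each other and lay well under WT (-1.30 in N108, adjusted p = 3.7e-17; -1.39 in M3, adjusted p = 5.5e-18).

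The 3 angiomotin genes did not move as 1 family. AMOTL1 was higher than WT in both mutants (0.26 in N108, adjusted p = 0.00034; 0.33 in M3, adjusted p = 1.6e-05), whereas AMOT did not pass in either (0.14, adjusted p = 0.064; -0.01, adjusted p = 0.88). AMOT did pass as higher in N108 when only the groups compared were fitted (0.14, adjusted p = 0.03). AJUBA, a LIM protein that inhibits LATS kinases, was lower in both lines (-0.63 in N108, -0.65 in M3). PTPN14, a phosphatase that holds YAP in the cytoplasm, was lower as well (-0.51 in N108, -0.68 in M3). WWC1 (KIBRA), an activator of the cascade, averaged 139 ± 2.3 CPM in N108, 87.4 ± 0.96 in M3 and 142 ± 6 in WT, and passed in M3 alone of the mutants (-0.69, adjusted p = 8.8e-14; in N108 -0.02, adjusted p = 0.69). FRMD6 did not pass in either line (0.04, adjusted p = 0.62; 0.05, adjusted p = 0.58).

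The YAP/TAZ targets held the largest reductions of the set. Of 15 targets, 10 were lower and 1 higher in N108 than in WT (66.7% and 6.67%, beside 21.6% and 20.9% of all genes), with a median log2 fold change of -0.39. In M3, 12 were lower and 2 higher (80% and 13.3%, beside 26.8% and 26.1% of all genes), with a median of -0.74. At least 2-fold reductions were called for 5 targets in N108 (33.3%, beside 3.15% of all genes) and 7 in M3 (46.7%, beside 4.95%). CCN2 (CTGF) and CCN1 (CYR61), secreted matricellular proteins, and ANKRD1, a nuclear ankyrin-repeat protein, are the transcripts most often read as a YAP and TAZ output.

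CCN2 (chromosome 6, 131948176 to 131951373) stood at 1.29, 1.19 and 1.36 CPM in untreated N108, at 1.64, 1.22 and 1.42 CPM in untreated M3 and at 5.05, 4.9 and 4.94 CPM in untreated WT. The mutants overlapped each other and lay far below WT, with a log2 fold change of -1.96 in N108 (SE 0.13, adjusted p = 1.1e-12) and -1.80 in M3 (SE 0.13, adjusted p = 3.8e-12). CCN1 (chromosome 1, 85580761 to 85583962) stood at 9.65, 9.59 and 9.6 CPM in untreated N108, at 9.86, 9.96 and 9.76 CPM in untreated M3 and at 24.8, 26.7 and 25.8 CPM in untreated WT. It too lay far below WT in both lines (-1.42 in N108, adjusted p = 4.7e-13; -1.38 in M3, adjusted p = 5.3e-13).

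ANKRD1 (chromosome 10, 90912096 to 90921276) was nearly undetected in the mutants. Its raw counts were 0, 0 and 2 in untreated N108 and 1, 0 and 0 in untreated M3, against 159, 126 and 116 in untreated WT. With TNF they were 0, 0 and 2 in N108 and 0, 0 and 0 in M3, against 109, 122 and 138 in WT. The 2 counts over untreated N108 corresponded to 0.487% of the WT level (95% exact Poisson interval of the ratio 0.0588 to 1.77%), and the 1 count over untreated M3 to 0.273% (0.00689 to 1.53%). With TNF, N108 stood at 0.501% of WT (0.0605 to 1.82%), and M3 had 0 counts, with an exact interval that reaches up to 0.959% of WT. A floor of 3 counts for that group, which takes the WT level as exact, lies 129-fold below WT. Only counting error enters the intervals and the floor. The reductions passed the test in N108 (adjusted p = 7.5e-14 untreated) and in M3 (adjusted p = 7.2e-14 untreated). ANKRD1 was modest in WT too, at 1.06 RPKM untreated.

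**Figure D2:**
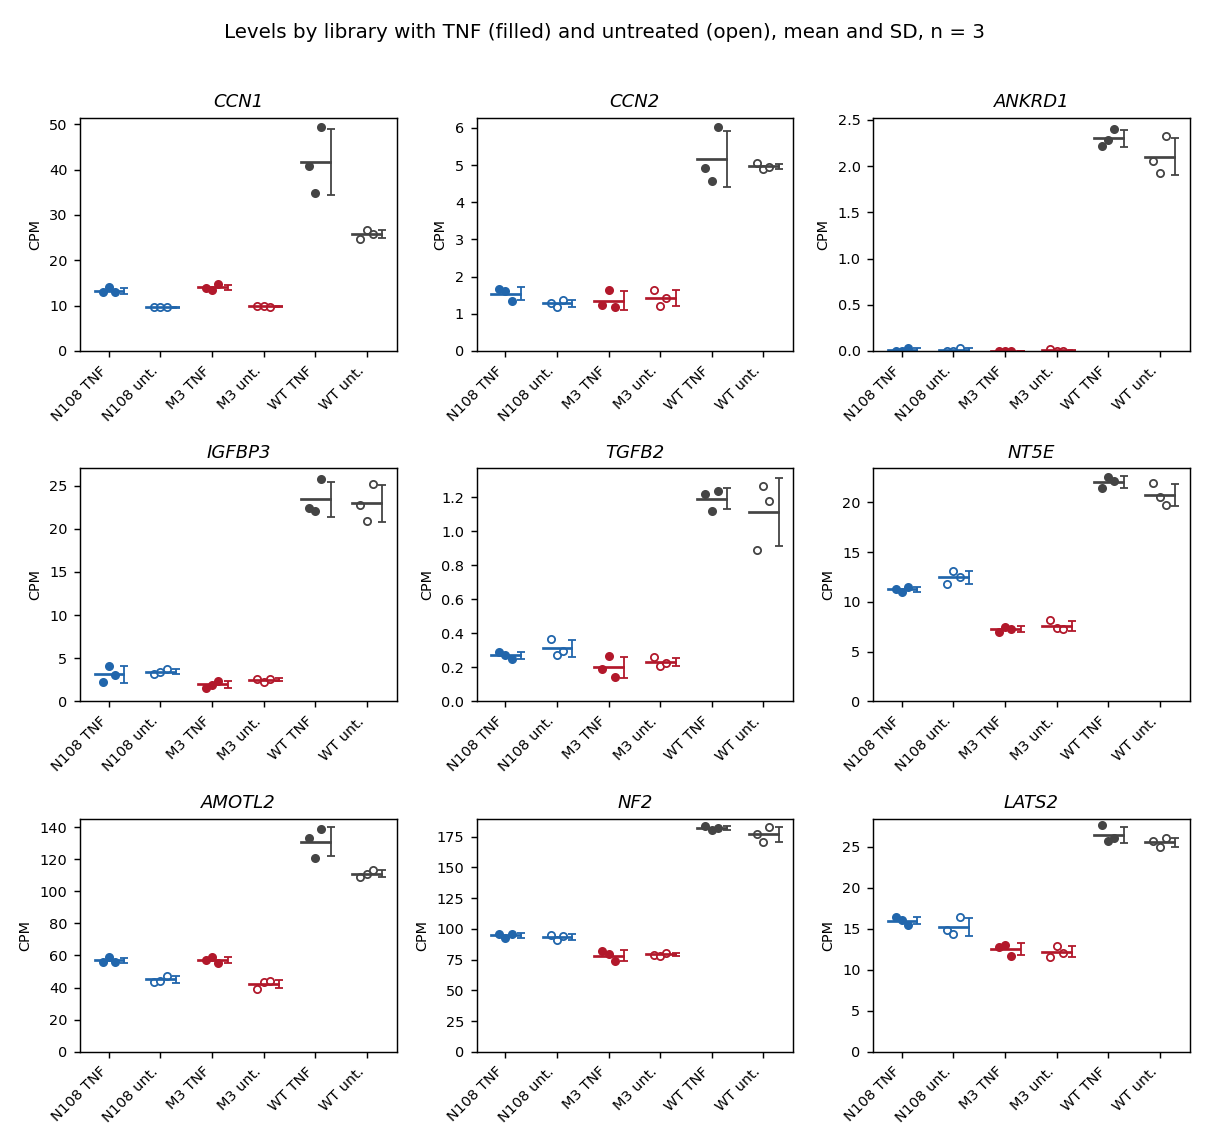
Level in CPM (y axis, from 0) of 9 members in each library of the 6 groups (x axis; unt., untreated), with TNF as filled and untreated as open points, a line for the mean and a bar for the SD, n = 3. In each panel all N108 and M3 libraries lie below all WT libraries of the same treatment, and the mutants' ANKRD1 points lie at or next to 0.

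IGFBP3, a secreted carrier of insulin-like growth factors (chromosome 7, 45912245 to 45921874), showed the largest fitted reduction after ANKRD1. It stood at 3.16, 3.4 and 3.76 CPM in untreated N108, at 2.6, 2.29 and 2.59 CPM in untreated M3 and at 22.8, 20.9 and 25.2 CPM in untreated WT. The lines did not overlap, and the log2 fold change was -2.74 in N108 (SE 0.14, adjusted p = 3.5e-11) and -3.20 in M3 (SE 0.15, adjusted p = 4.9e-12). TGFB2, a ligand of the TGF-β receptors (chromosome 1, 218346235 to 218444619), was low throughout, at 0.369, 0.274 and 0.294 CPM in untreated N108, at 0.26, 0.211 and 0.228 CPM in untreated M3 and at 0.888, 1.27 and 1.18 CPM in untreated WT. TGFB2-OT1 lies on the same strand over 26.62% of TGFB2 exon bases and averaged 0 CPM in every group. Whether counting dropped reads shared by overlapping genes is not known here. That 0 therefore does not show whether TGFB2 lost reads in this stretch. Both mutants lay below WT for TGFB2 (-1.83 in N108, adjusted p = 5.2e-08; -2.24 in M3, adjusted p = 2.9e-09).

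NT5E and F3 separated the mutants. NT5E (CD73), the ectoenzyme that makes adenosine from AMP (chromosome 6, 85449584 to 85495791), stood at 11.8, 13.1 and 12.5 CPM in untreated N108, at 8.19, 7.4 and 7.26 CPM in untreated M3 and at 21.9, 20.5 and 19.7 CPM in untreated WT. The order was M3, N108, WT with no overlap (-0.73 in N108, adjusted p = 1.1e-10; -1.45 in M3, adjusted p = 7.7e-17). F3, tissue factor, which starts coagulation (chromosome 1, 94529225 to 94541800), stood at 16.3, 16.7 and 16.7 CPM in untreated N108, at 8.74, 8.05 and 8.26 CPM in untreated M3 and at 17.7, 16.7 and 17.4 CPM in untreated WT. N108 lay at the lower edge of WT and did not pass (-0.06, adjusted p = 0.44), while M3 lay far below (-1.05, SE 0.064, adjusted p = 9.5e-14).

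The other targets differed less. DOCK5, an exchange factor for Rac, was lower in both lines (-0.47 in N108, -0.74 in M3), as were MYOF, the membrane repair protein myoferlin (-0.31 and -0.57), and ARHGEF17, a guanine nucleotide exchange factor (-0.39 and -0.49). The receptor kinase AXL was slightly lower (-0.20 and -0.16). MYOF had the highest level per length of the 37 members in untreated WT cells (68.4 RPKM). ASAP1, an Arf GTPase-activating protein, passed in M3 (-0.24, adjusted p = 0.0015) and not in N108 (-0.13, adjusted p = 0.079). ASAP1 did pass in N108 with GC trends removed (-0.20, adjusted p = 0.0017) and when only the groups compared were fitted (-0.13, adjusted p = 0.0062). CRIM1, a transmembrane protein that binds bone morphogenetic proteins, went the other way and was higher in both lines (0.34 in N108, 0.33 in M3). FJX1, the human counterpart of the Drosophila kinase four-jointed, was higher in M3 (0.31, adjusted p = 8.8e-05) and did not pass in N108 (-0.08, adjusted p = 0.31). NUAK2, a kinase of the AMPK family, did not pass in either (0.05, adjusted p = 0.73; -0.09, adjusted p = 0.55).

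Promoters of NUAK2, CCN2, ANKRD1 and AMOTL2, picked after their values were seen, are shown because they hold the letters GGAATG, the core that TEAD factors are known to bind. Each is the 250 bases upstream of the RefSeq start on GRCh38.p14, minus strand, printed 5′ to 3′, with matches to GGAATG or its reverse complement CATTCC in capitals. AMOTL2 has another RefSeq window, without these letters on either strand, that is not shown. The AMOTL2 window shown lies within the gene span given above. The ANKRD1 and NUAK2 windows lie partly within their gene spans. The ANKRD1 match from -128 and the NUAK2 match from -18 fall in those parts.
NUAK2 chr1:205321746-205321995: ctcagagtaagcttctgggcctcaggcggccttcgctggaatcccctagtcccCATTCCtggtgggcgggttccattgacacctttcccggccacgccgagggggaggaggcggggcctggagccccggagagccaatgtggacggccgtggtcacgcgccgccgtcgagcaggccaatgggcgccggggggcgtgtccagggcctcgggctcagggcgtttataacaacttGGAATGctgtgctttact
CCN2 chr6:131951373-131951622: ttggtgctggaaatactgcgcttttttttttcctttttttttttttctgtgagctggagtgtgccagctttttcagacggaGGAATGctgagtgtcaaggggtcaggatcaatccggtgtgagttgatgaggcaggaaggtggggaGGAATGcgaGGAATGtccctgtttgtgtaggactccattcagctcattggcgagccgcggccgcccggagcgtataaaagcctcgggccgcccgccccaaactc
ANKRD1 chr10:90921088-90921337: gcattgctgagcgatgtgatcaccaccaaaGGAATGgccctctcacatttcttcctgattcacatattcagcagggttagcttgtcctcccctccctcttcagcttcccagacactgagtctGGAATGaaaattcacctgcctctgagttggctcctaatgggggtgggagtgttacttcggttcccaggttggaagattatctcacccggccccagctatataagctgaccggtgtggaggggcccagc
AMOTL2 chr3:134374448-134374697: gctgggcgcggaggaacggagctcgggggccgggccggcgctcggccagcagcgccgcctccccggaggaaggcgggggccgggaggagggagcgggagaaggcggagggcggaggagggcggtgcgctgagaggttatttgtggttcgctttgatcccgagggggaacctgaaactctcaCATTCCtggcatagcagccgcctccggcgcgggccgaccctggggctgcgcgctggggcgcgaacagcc
The CCN2 window held 3 matches, beginning at -169, -104 and -95 from the start, and the last overlaps a match to a κB motif. NUAK2 held 2 matches (from -197 and -18), ANKRD1 held 2 (from -220 and -128) and AMOTL2 held 1 (from -69). RefSeq windows were matched for 29 of the 37 members, not for ARHGEF17, TEAD1, TEAD4, CCN1, CRIM1, STK3, DOCK5 and ASAP1. A TEAD match on either strand stood in 9 of the 29 (AJUBA, AMOTL2, ANKRD1, AXL, CCN2, NUAK2, PTPN14, TGFB2 and YAP1), in 9 of their 41 windows, while 11.9% of all 35116 windows held one. A κB match stood in 3 of the 41 windows (AMOTL2, CCN2 and FJX1), beside 9.96% of all windows. An AP-1 match stood in 1 of the 41 (F3), beside 4.2% of all windows. NUAK2 held neither. The κB match of AMOTL2 lay in its window that is not shown. A match describes the letters in the window and shows no binding.

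The mutants also differed from each other. Without TNF, 15 of 37 members (40.5%) passed between N108 and M3, beside 31.5% of all genes tested. Of these, 14 were higher in N108 (beside 16.4% of all genes), and 1, FJX1, was lower (-0.39, adjusted p = 1.2e-05; beside 15% of all genes). F3 (0.99, adjusted p = 1.7e-12), NT5E (0.72, adjusted p = 1.8e-09) and WWC1 (0.67, adjusted p = 8.7e-13) led, followed by LATS2 (0.32), YAP1 (0.28), DOCK5 (0.27), MYOF (0.26), NF2 (0.24), MOB1A (0.24), TEAD2 (0.22), TEAD3 (0.21), WWTR1 (0.20), STK3 (0.18) and STK4 (0.13). Single libraries decided 4 of these calls. WWTR1 was lost without M3 replicate 3 (0.14, adjusted p = 0.059), and MOB1A without N108 replicate 1 or 2 or M3 replicate 3 (0.14 to 0.22, adjusted p from 0.12 to 0.19). STK3 was lost without N108 replicate 2 or 3 or M3 replicate 2 or 3 (0.14 to 0.18, adjusted p from 0.051 to 0.14), and STK4 without any 1 of the 6 libraries (0.10 to 0.15, adjusted p from 0.053 to 0.18). Several targets that were at least 2-fold lower than WT in both lines did not pass between the mutants: CCN1 differed by -0.04 (SE 0.09, adjusted p = 0.80), CCN2 by -0.16 (SE 0.15, adjusted p = 0.47), TGFB2 by 0.41 (SE 0.28, adjusted p = 0.29) and IGFBP3 by 0.46 (SE 0.18, adjusted p = 0.058). IGFBP3, whose libraries did not overlap between the mutants, passed in 6 of the 8 other settings that kept all libraries (0.46 to 0.47, adjusted p from 0.00022 to 0.046).

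TNF for 40 min raised a few members in every line. In N108, 5 of 37 members rose (13.5%), beside 1.1% of all genes that were higher. In M3, 5 rose, beside 1.1% of all genes, and in WT 5 rose, beside 2.03% of all genes. The median log2 fold change over the members was 0.01 in N108, 0.03 in M3 and 0.06 in WT, beside 0.00, 0.00 and 0.01 over all genes. NUAK2, CCN1, F3 and AMOTL2 rose in all 3 lines, FJX1 passed in both mutants and SAV1 in WT.

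**Figure D3:**
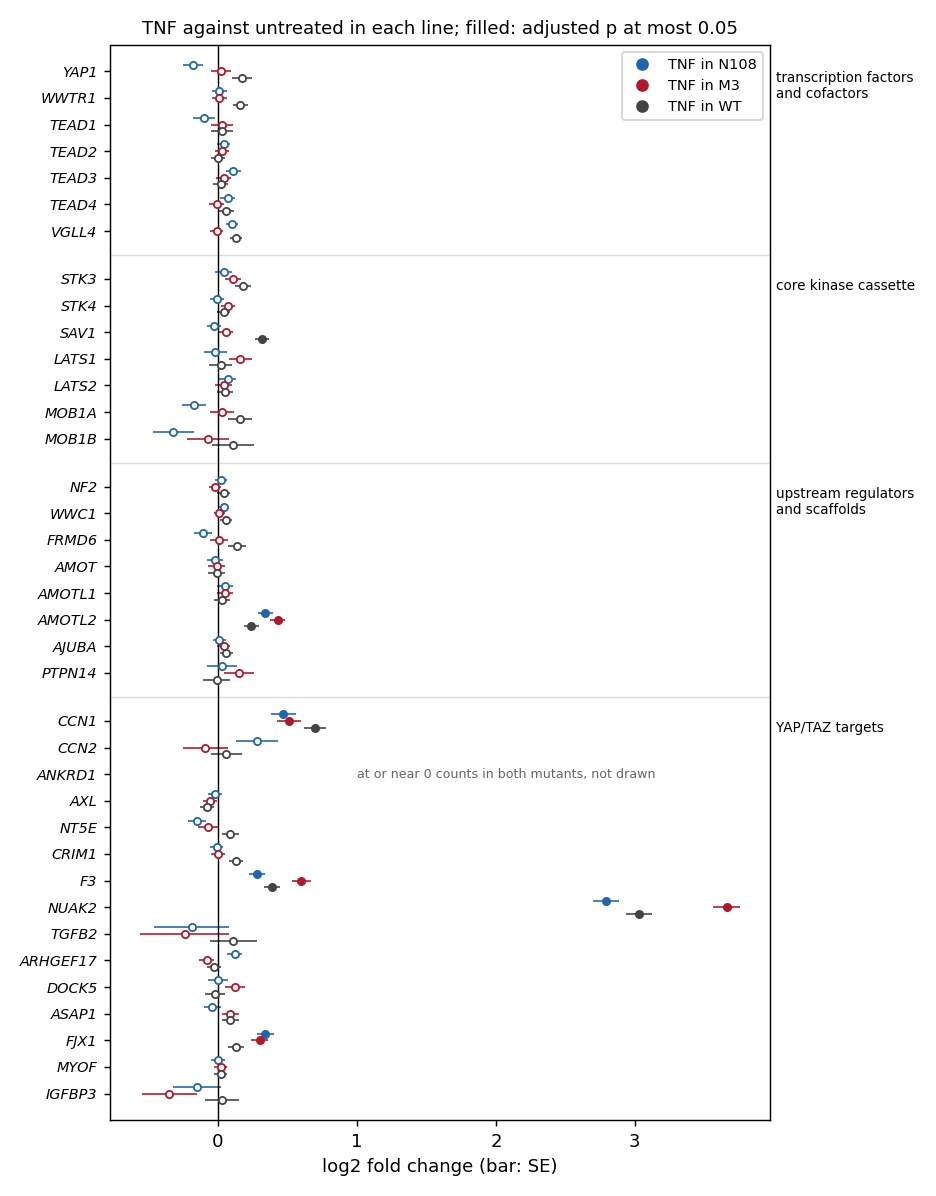
Log2 fold change (x axis) with TNF against untreated of 36 members, by role down the page, in N108 (blue), M3 (red) and WT (grey), with bars for the standard error and filled points for an adjusted p of at most 0.05. NUAK2 stands apart at 2.79 in N108, 3.66 in M3 and 3.03 in WT, and most other members lie near 0; ANKRD1 is not drawn.

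NUAK2 (ENSG00000163545, chromosome 1, 205302059 to 205321791, minus strand), whose promoter is printed above, had the largest TNF response of the set. In N108 it stood at 30.0, 35 and 25.1 CPM with TNF, against 4.51, 4.08 and 4.42 CPM untreated. In M3 it stood at 51.5, 50.6 and 46.6 CPM with TNF, against 4.12, 3.85 and 3.8 CPM untreated. In WT it stood at 34.3, 34.1 and 34 CPM with TNF, against 3.95, 3.96 and 4.68 CPM untreated. All TNF libraries lay far above all untreated ones, and with TNF the M3 libraries lay above those of both other lines, whose values overlapped. The log2 fold change was 2.79 in N108 (SE 0.093, adjusted p = 2.5e-17), 3.66 in M3 (SE 0.095, adjusted p = 8.3e-20) and 3.03 in WT (SE 0.094, adjusted p = 4.2e-18).

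The response of NUAK2 was larger in M3 than in WT by 0.63 in the interaction test (SE 0.14, adjusted p = 0.043). By edgeR it was 1 of 37 members to pass for M3 (beside 0.315% of all genes), and leaving out any 1 of 10 of the 12 libraries ended the call (0.55 to 0.67, adjusted p up to 0.13). The call held without M3 TNF replicate 3 and without WT TNF replicate 1. For N108 the interaction did not pass (-0.24, SE 0.13, adjusted p = 0.31).

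CCN1 rose with TNF in all lines from unequal starting levels. In N108 it stood at 13, 14.1 and 12.9 CPM with TNF, against 9.65, 9.59 and 9.6 CPM untreated. In M3 it stood at 13.9, 13.4 and 14.7 CPM with TNF, against 9.86, 9.96 and 9.76 CPM untreated. In WT it stood at 40.9, 34.9 and 49.4 CPM with TNF, against 24.8, 26.7 and 25.8 CPM untreated. Treated and untreated libraries did not overlap in any line, and the treated mutants stayed below untreated WT. The log2 fold change was 0.47 in N108 (SE 0.088, adjusted p = 0.0024), 0.51 in M3 (SE 0.088, adjusted p = 0.00088) and 0.70 in WT (SE 0.078, adjusted p = 8.8e-07). The responses did not differ from WT by the interaction test (-0.23 for N108, adjusted p = 0.26; -0.19 for M3, adjusted p = 0.68). CCN2 did not pass in any line (0.28 in N108, adjusted p = 0.38; -0.09 in M3, adjusted p = 0.91; 0.06 in WT, adjusted p = 0.83). With TNF it stood at 1.66, 1.62 and 1.35 CPM in N108, at 1.24, 1.64 and 1.18 CPM in M3 and at 4.92, 4.57 and 6.02 CPM in WT.

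**Figure D4:**
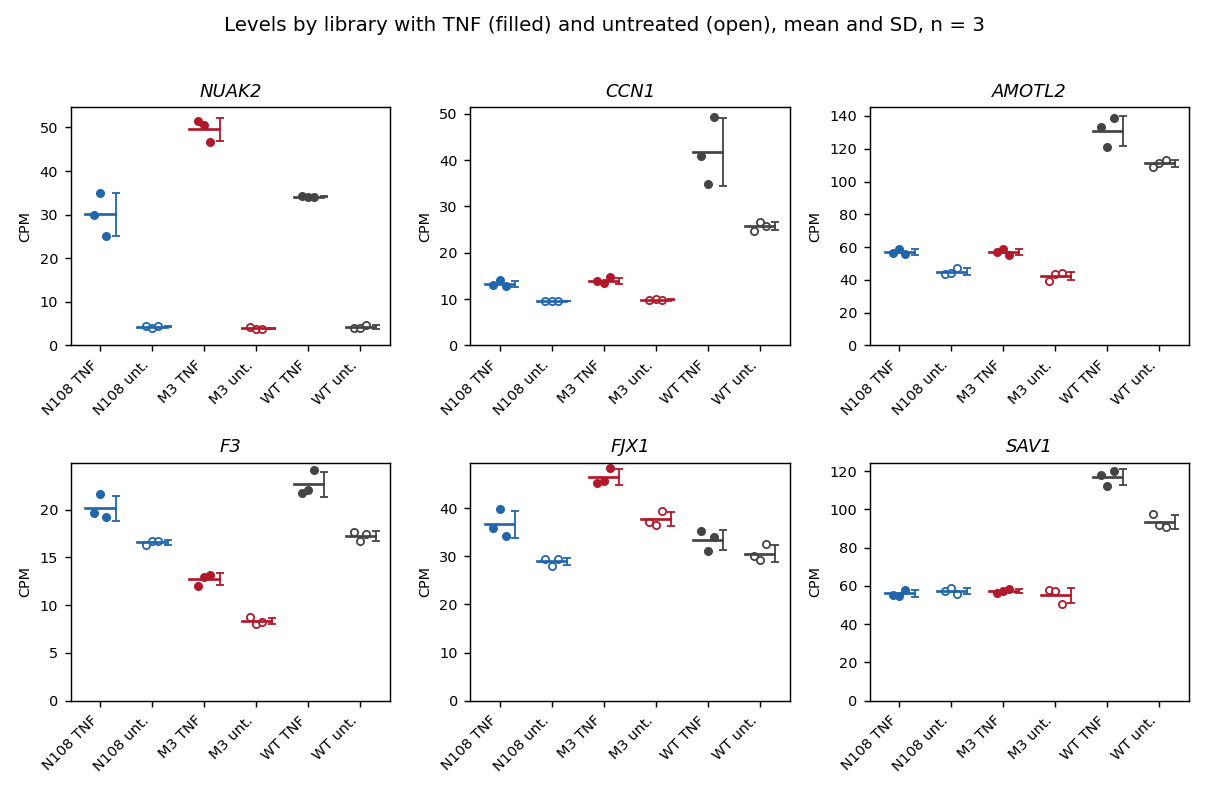
Level in CPM (y axis, from 0) in each library of the 6 groups (x axis; unt., untreated) of the 6 members that passed a TNF comparison, with TNF as filled and untreated as open points, a line for the mean and a bar for the SD, n = 3. SAV1 with TNF lies above untreated in WT (112 to 120 against 90.8 to 97.6 CPM), while its treated and untreated libraries overlap in N108 and M3.

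AMOTL2 and F3 rose modestly. AMOTL2 stood in N108 at 56.2, 58.8 and 55.7 CPM with TNF, against 43.6, 44.3 and 47.3 CPM untreated. It stood in M3 at 57, 59.1 and 55.3 CPM with TNF, against 39.2, 43.7 and 44 CPM untreated, and in WT at 133, 121 and 139 CPM with TNF, against 109, 111 and 113 CPM untreated. The treated libraries lay above the untreated ones in each line. The log2 fold change was 0.34 in N108 (adjusted p = 0.00027), 0.43 in M3 (adjusted p = 4.5e-06) and 0.24 in WT (adjusted p = 0.0054), and the WT call was lost without WT TNF replicate 3 (0.19, adjusted p = 0.077).

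F3 stood in N108 at 19.6, 21.6 and 19.2 CPM with TNF, against 16.3, 16.7 and 16.7 CPM untreated. It stood in M3 at 12, 12.9 and 13.2 CPM with TNF, against 8.74, 8.05 and 8.26 CPM untreated, and in WT at 21.7, 22.1 and 24.1 CPM with TNF, against 17.7, 16.7 and 17.4 CPM untreated. The groups of each line did not overlap (0.28 in N108, adjusted p = 0.0093; 0.60 in M3, adjusted p = 3.1e-07; 0.39 in WT, adjusted p = 7.6e-05). The N108 call was lost without untreated replicate 1 (0.27, adjusted p = 0.057), untreated replicate 2 (0.28, adjusted p = 0.05, just past the threshold) or TNF replicate 2 (0.23, adjusted p = 0.12), and when only the N108 libraries were fitted (adjusted p = 0.091).

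FJX1 stood in N108 at 35.8, 39.8 and 34.3 CPM with TNF, against 29.4, 28 and 29.4 CPM untreated. It stood in M3 at 45.3, 45.6 and 48.4 CPM with TNF, against 37.2, 36.6 and 39.5 CPM untreated, and in WT at 35.2, 31 and 34 CPM with TNF, against 30, 29.2 and 32.5 CPM untreated. The treated and untreated libraries overlapped only in WT. FJX1 rose by 0.34 in N108 (adjusted p = 0.00077) and by 0.30 in M3 (adjusted p = 0.0034), and in WT it did not pass (0.13, adjusted p = 0.24), though it did once GC trends were removed (0.22, adjusted p = 0.00065). Its interaction with genotype did not pass (0.21 for N108, adjusted p = 0.15; 0.17 for M3, adjusted p = 0.58).

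SAV1 was the member that passed the edgeR interaction test between N108 and WT. With TNF it stood at 55.4, 54.9 and 57.9 CPM in N108, at 56.4, 57.5 and 58.6 CPM in M3 and at 118, 112 and 120 CPM in WT. Against the untreated values given above, treated WT libraries were all higher, while in both mutants treated and untreated libraries overlapped. SAV1 rose in WT (0.32, SE 0.05, adjusted p = 9.3e-05) and did not pass in N108 (-0.03, adjusted p = 0.83) or M3 (0.06, adjusted p = 0.80). The interaction passed for N108 (-0.35, SE 0.071, adjusted p = 0.008), where 1 of 37 members passed beside 2.62% of all genes, and not for M3 (-0.26, SE 0.071, adjusted p = 0.12). With each of the 12 libraries left out in turn, the N108 interaction lay between -0.38 and -0.33 and kept its call. For M3, the SAV1 interaction did pass with DESeq2 (-0.27, adjusted p = 0.031) and with GC trends removed (-0.26, adjusted p = 0.018). MOB1A passed for N108 with DESeq2 (-0.34, adjusted p = 0.047) and without a low-count filter (-0.33, adjusted p = 0.0035).

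YAP1 and WWTR1 did not pass for TNF in any line by the edgeR test used here. YAP1 did pass as lower in N108 without a low-count filter (-0.18, adjusted p = 0.022). In WT it passed as higher when only the groups compared were fitted (0.14, adjusted p = 0.045). With TNF, YAP1 stood at 205, 185 and 218 CPM in N108, at 189, 202 and 181 CPM in M3 and at 208, 213 and 207 CPM in WT. WWTR1 stood at 66.2, 65.1 and 69.6 CPM in N108, at 54.2, 61.1 and 60 CPM in M3 and at 86.2, 86.4 and 91.6 CPM in WT. In N108, YAP1 overlapped WT with TNF and lay above WT without it. Its interaction with N108 was -0.34 (SE 0.1, adjusted p = 0.073), which did not pass here. It did pass with DESeq2 (-0.35, adjusted p = 0.023), without a low-count filter (-0.34, adjusted p = 0.00025) and when only the groups compared were fitted (-0.34, adjusted p = 0.028).

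With TNF present, most members again passed against WT. Against WT, 28 of 37 members passed in N108 (beside 46.7% of all genes), 24 lower (beside 23.6%) and 4 higher (beside 23%). In M3 28 passed as well (beside 54.7% of all genes), 24 lower (beside 27.8%) and 4 higher (beside 26.9%). Reductions of at least 2-fold were called for 7 members in N108 (beside 3.17% of all genes) and 10 in M3 (beside 4.91%). The median was -0.27 in N108 and -0.53 in M3, beside 0.02 over all genes in each. SAV1 was among them in both (-1.06 in N108, -1.02 in M3). NF2 stood at 95.7, 92.2 and 95.8 CPM in treated N108, at 81.9, 79.2 and 73.7 CPM in treated M3 and at 184, 180 and 182 CPM in treated WT. LATS2 stood at 16.4, 16.1 and 15.5 CPM, at 12.8, 13 and 11.7 CPM and at 27.6, 25.7 and 26 CPM in the same groups. As without TNF, M3 was lowest and WT highest for both genes, with no overlap. IGFBP3 stood at 2.2, 4.09 and 3.08 CPM in treated N108, at 1.54, 1.95 and 2.41 CPM in treated M3 and at 22.4, 22.1 and 25.8 CPM in treated WT, again far below WT in both mutants (-2.92 and -3.59). NUAK2 was higher in M3 than in WT with TNF (0.54, SE 0.078, adjusted p = 2e-06), the reverse of the prevailing direction.

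For the remaining members that responded to genotype, TGFB2 with TNF stood at 0.293, 0.27 and 0.25 CPM in N108, at 0.188, 0.267 and 0.145 CPM in M3 and at 1.22, 1.12 and 1.24 CPM in WT. NT5E with TNF stood at 11.3, 11 and 11.5 CPM in N108, at 6.94, 7.5 and 7.29 CPM in M3 and at 21.4, 22.6 and 22.1 CPM in WT. TEAD2 with TNF stood at 64.3, 68.3 and 66.2 CPM in N108, at 56.4, 59.2 and 53.7 CPM in M3 and at 60.1, 58.5 and 61.1 CPM in WT. TGFB2 and NT5E were again low in both mutants, and TEAD2 was slightly higher in N108 than in WT (0.15, adjusted p = 0.016). That TEAD2 call was lost without N108 TNF replicate 2 (0.12, adjusted p = 0.057) and without WT TNF replicate 2 (0.13, adjusted p = 0.07), and when GC trends were removed or only the groups compared were fitted.

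Other genes of the pathway went both ways. Of 35 tested genes on a list of other Hippo regulators, 12 were lower and 7 higher in untreated N108 than in WT (34.3% and 20%, beside 21.6% and 20.9% of all genes; median -0.07), and 14 were lower and 2 higher in untreated M3 (40% and 5.71%, beside 26.8% and 26.1%; median -0.11). FAT4, an atypical cadherin, and TNIK, a kinase that acts in parallel to STK3 and STK4, were higher in both lines (FAT4 by 1.58 in N108 and 1.17 in M3, TNIK by 1.33 and 1.18). FAT1, a related cadherin, passed in N108 (0.82) and not in M3 (0.09, adjusted p = 0.76). WWC3, a relative of WWC1, was lower in both (-0.76 in N108, -1.26 in M3). Of 18 tested genes on a list of other YAP/TAZ targets, 7 were lower and 6 higher in N108 (38.9% and 33.3%; median -0.02), and 7 were lower and 4 higher in M3 (38.9% and 22.2%; median -0.05). THBS1 (thrombospondin, a matrix protein) was lower in both lines (-1.65 in N108, -2.22 in M3), as were CAVIN2, a caveolar coat protein (-2.20 and -2.04), and CPA4, a carboxypeptidase (-1.62 and -2.22). INHBA, which encodes a subunit of activin A, parted the mutants: it stood at 0.0887 ± 0.026 CPM in N108, 1.86 ± 0.19 CPM in M3 and 0.54 ± 0.08 CPM in WT. Its log2 fold change against WT was -2.53 in N108 and 1.80 in M3.

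With TNF, 2 of the 18 other targets rose in N108 (beside 1.1% of all genes), 4 in M3 (beside 1.1%) and 6 in WT (beside 2.03%). AREG (amphiregulin, an EGF receptor ligand) rose in each line (0.51 in N108, 0.56 in M3, 0.46 in WT). EDN1 (endothelin) rose in WT by 1.87 and did not pass in N108 (0.39, adjusted p = 0.60) or M3 (0.34, adjusted p = 0.85). The interaction for EDN1 did not pass either (-1.49 for N108, adjusted p = 0.051; -1.53 for M3, adjusted p = 0.17).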

How the data were processed

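Raw read counts per gene, as deposited by the authors for all 18 libraries, were the only values used; the authors' normalized table was not. Per the submitters' processing notes, their pipeline named STAR 2.7.8 on hg38, Trim Galore 0.6.6, DESeq2 1.38.3 and, from Subread 2.0.1, featureCounts, and per the labels reads were paired-end of 50 bp. The sources used here name neither the annotation release nor the strand setting. Groups and replicate numbers came from the sample titles. The 37 members, the gene lists and the tests were chosen with earlier results of these data known. Per-library values are printed for members that passed a TNF comparison or an interaction, or a mutant comparison untreated with at least 2-fold change, and for YAP1, WWTR1 and TEAD2. From each further list, at most 3 genes per comparison are named, the largest changes that passed; 1 such gene is not reported here.

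Genes were kept with filterByExpr (minimum count 10), which left 19038 genes holding 99.97% of counts. One edgeR 4.0.16 quasi-likelihood model (R 4.3.3) had a mean per group over all libraries, with TMM scaling and 12 residual degrees of freedom, and gave 10 comparisons, two-sided. Standard errors divide the size of the log2 fold change by the root of the F statistic. The test was checked on simulated counts. Symbols were matched for 99.99% of rows. RPKM used exon lengths of GENCODE 29, whose positions are given. RefSeq promoters were searched on both strands. Alternatives were DESeq2 1.42.0, its size factors, other filters, a replicate block, removal of GC trends, fits of only the groups compared, and leaving out each library.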

Additional observations from a re-analysis of the deposited data

Results flagged for a closer look

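SAV1 was marked because the effect of TNF differed between N108 and WT in the interaction test, by -0.35 on the log2 scale (edgeR quasi-likelihood, adjusted p = 0.008). NUAK2 was marked because the effect of TNF differed between M3 and WT, by 0.63 (adjusted p = 0.043). The NUAK2 difference kept a similar size with any 1 library left out (0.55 to 0.67), while its adjusted p lay between 0.045 and 0.13.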

How the results depend on the processing

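Of 143 calls of members over the 10 comparisons, none changed direction in any setting run, and between 0 and 4 were lost in the 8 settings that kept all libraries. Counts of members that passed a test stayed within 1.5 times of those reported, except as follows. For TNF in WT the count was 8 with a replicate block and GC trends removed together. For the interaction with N108 (1 reported) it was 3 with DESeq2, 3 without a low-count filter, 2 with only the groups compared, and between 1 and 5 with one library left out, the highest without N108 TNF replicate 3. For the interaction with M3 (1 reported) it was 2 with DESeq2, 0 with the replicate block, 2 with GC trends removed and 2 with both (SAV1 joining in each count of 2), and between 0 and 1 with one library left out. The causes were not tested. Replicate numbers did not pair the samples, since same-numbered libraries deviated from their group means with correlations between -0.06 and 0.10. The replicate block ended 2 of the 143 calls, NUAK2 in the M3 interaction (0.62, adjusted p = 0.052) and STK4 between the mutants. With one library left out, 0 to 6 calls were lost, out of the 34 to 63 calls that used that library. The most, 6 of 48, were lost without N108 untreated replicate 2. Libraries differed in GC trend, with Spearman correlations of deviation and GC content from -0.52 to 0.46. No alternatives were run for the further gene lists. Depth limits ANKRD1 in the mutants and, less, TGFB2.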
